A study of Mus musculus with 9 samples.

Results

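The 9 genes Cd79a, Cd79b, Ms4a1, Cd22, Pax5, Ebf1, Blk, Blnk and Gcsam, known for their part in B cells, were measured in a mouse splenic dendritic cell (DC) preparation treated with inhibitors of histone deacetylases. They were found by symbol among probe sets that the platform annotation pairs with exactly 1 gene. All 9 were present and were read by 13 of the 20380 probe sets with a single symbol, so they are 9 of 12393 genes measured. Ebf1 had 3 probe sets, Ms4a1 and Cd22 had 2 each and the other 6 genes had 1 each.

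Total RNA was hybridised to 9 one-colour arrays, 3 from butyrate-treated, 3 from TSA-treated and 3 from untreated cells. Butyrate is a short-chain fatty acid and TSA (trichostatin A) a hydroxamic acid, and both block the enzymes that take acetyl groups off histones. In all 3 groups the cells came from spleens of mice aged 6 to 8 weeks that carried B.16 tumors (a melanoma line) made to express Flt3L, a cytokine on which DC development depends, and CD11c magnetic beads were used to purify them. The labels give no dose, duration, sex or strain, and they do not say whether the arrays of a group came from separate mice, so p-values measure only the spread between these samples, which may be technical. A bead selection can leave other spleen cells in the preparation, and in bulk RNA fewer cells of a type and less RNA per cell cannot be told apart.

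B cells recognise antigen through a surface immunoglobulin that cannot signal by itself. It is paired with the chains CD79A and CD79B, whose tails are phosphorylated by Src-family kinases such as BLK and pass the signal through SYK and the adaptor BLNK to BTK and phospholipase C gamma. EBF1 and PAX5 are the transcription factors that specify the lineage and hold cells in it, and they activate genes such as Cd79a and Blnk. In spleen these transcripts mark B cells, although single genes of the set are also transcribed in some DC.

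Sequence upstream of the start site is shown for 3 members that differ in their response: Gcsam, which moved in opposite directions with the 2 treatments, and Cd79a and Blnk, which fell with TSA. RefSeq's table for GRCm38.p6 held 7 windows for 6 of the 9 members (Pax5, Cd79a, Cd22, Ebf1, Gcsam and Blnk), and the 250 bases before the start are given 5′ to 3′ on the strand of the gene. Capitals mark matches on either strand to 4 short motifs: the octamer ATGCAAAT bound by OCT factors, the E-box CAGGTG bound by E proteins, the EBF-type palindrome (TCCC and GGGA with 2 bases of any kind between them) and the ETS-type motif AGGAAGT.
Gcsam, chr16:45610190-45610439, plus strand: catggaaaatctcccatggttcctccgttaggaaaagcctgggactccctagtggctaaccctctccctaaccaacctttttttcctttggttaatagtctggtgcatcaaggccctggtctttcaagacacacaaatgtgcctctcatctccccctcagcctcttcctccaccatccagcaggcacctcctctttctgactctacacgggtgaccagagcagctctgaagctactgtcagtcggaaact
Cd79a, chr7:24897247-24897496, plus strand: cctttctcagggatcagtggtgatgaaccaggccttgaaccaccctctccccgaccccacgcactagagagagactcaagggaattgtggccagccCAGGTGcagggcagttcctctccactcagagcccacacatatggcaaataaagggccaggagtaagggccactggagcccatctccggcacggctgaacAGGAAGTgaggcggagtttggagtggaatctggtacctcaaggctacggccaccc
Blnk, chr19:40994222-40994471, minus strand: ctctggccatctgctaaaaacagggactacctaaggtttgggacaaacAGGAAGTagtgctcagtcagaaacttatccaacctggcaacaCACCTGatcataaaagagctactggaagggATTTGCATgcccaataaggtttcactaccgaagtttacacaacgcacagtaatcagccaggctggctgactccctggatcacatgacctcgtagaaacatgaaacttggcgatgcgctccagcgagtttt

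The Gcsam window held none of the 4 motifs. Cd79a held an E-box that begins 154 bases before the start and an ETS-type motif at 55 bases. Blnk held the octamer at 130 bases and an E-box at 160, both on the opposite strand, and an ETS-type motif at 202. Of the windows not shown, Cd22 held an E-box on the opposite strand at 245 bases and an EBF-type palindrome at 49. Neither Pax5 nor either Ebf1 window held any of the motifs. Among the 32851 windows of the table, 17.2% held the E-box, 7.69% the ETS-type motif, 1.6% the octamer and 0.779% the EBF-type palindrome. CG dinucleotides numbered 3 in the Gcsam window and 6 each in Cd79a and Blnk, against a median of 6.0 over all windows, while Pax5 had 19 and the 2 Ebf1 windows had 9 and 14. These matches describe the letters of the windows and are not binding sites shown by these data.

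The deposited values are log2 levels made with RMA, which normalizes arrays to each other, so every change below is relative to the bulk of genes on the array. Across the brightest probe set of each gene, r within a group was at least 0.997. Array medians over all probe sets differed little, from 6.698 to 6.746. Bacterial hybridization spike-ins were brighter on butyrate arrays, at 10.99 ± 0.06 with butyrate, 10.61 ± 0.03 with TSA and 10.57 ± 0.08 in untreated samples (SD, n = 3), a butyrate minus untreated difference of 0.42. Poly-A spike-ins were at 8.44 ± 0.09 with butyrate, 8.13 ± 0.14 with TSA and 8.13 ± 0.27 in untreated samples (SD, n = 3). Shifting arrays to equal hybridization spike-ins moved the median butyrate change of all genes from 0.08 to −0.33, and shifting them to poly-A spike-ins moved it to −0.23. The poly-A shift also passes the spread of those spike-ins within a group to every gene, so a call can be lost there with little change in its size. The TSA median moved by less than 0.1 under both. The 3′ minus 5′ difference of the beta-actin control, a sign of RNA integrity, was 0.68 ± 0.04 with butyrate, 0.64 ± 0.04 with TSA and 0.43 ± 0.07 in untreated samples, and its part in the results was not tested.

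Transcripts of DC and of B lineage cells were both measured in the preparation, the latter at widely differing levels. Flt3, the Flt3L receptor, averaged 10.39 with butyrate, 10.43 with TSA and 11.02 in untreated cells, and Itgax, which encodes CD11c, averaged 8.50, 8.25 and 9.24 in the same order. The heavy chain Ighm, which B lineage cells transcribe, averaged 12.91 with butyrate, 12.76 with TSA and 12.87 in untreated cells. It is a single gene, and whether B cells were present was not tested. Among the 9 genes, untreated means of the brightest probe sets ran from 9.19 for Ms4a1 to 4.79 for Pax5. Those of Cd79a, Cd22, Blk, Gcsam, Ebf1 and Pax5 lay below the array medians of 6.698 to 6.746. Levels of the B cell factors Pax5 and Ebf1 were dim, with every probe set between 3.99 and 5.31 on every array, near or below the arrays' 25th percentile of 4.97 to 5.09. Fold changes of such dim probe sets tend to be understated on this scale.

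The strongest fall among the 9 genes was in Cd79b, and it was seen with both drugs. With butyrate 3 of the 9 genes fell and 0 rose, with TSA 5 fell and 1 rose, each gene being judged by its brightest probe set at a limma adjusted p under 0.05. The genes that fell with butyrate were Cd79b, Ms4a1 and Gcsam. Those that fell with TSA were Cd79b, Ms4a1, Blnk, Cd79a and Ebf1, and the one that rose was Gcsam. Over all genes 24.5% fell and 32.6% rose with butyrate, and 20.5% fell and 25.8% rose with TSA. The share of members that fell with butyrate is therefore close to that of all genes, and with TSA 5 of 9 exceed the 20.5% without a test of that difference. The median change of the 9 genes was −0.20 with butyrate and −0.30 with TSA, against 0.08 and 0.03 over all genes. Since the untreated arrays serve both comparisons, the changes are set side by side and are not independent results.

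**Figure D1:**
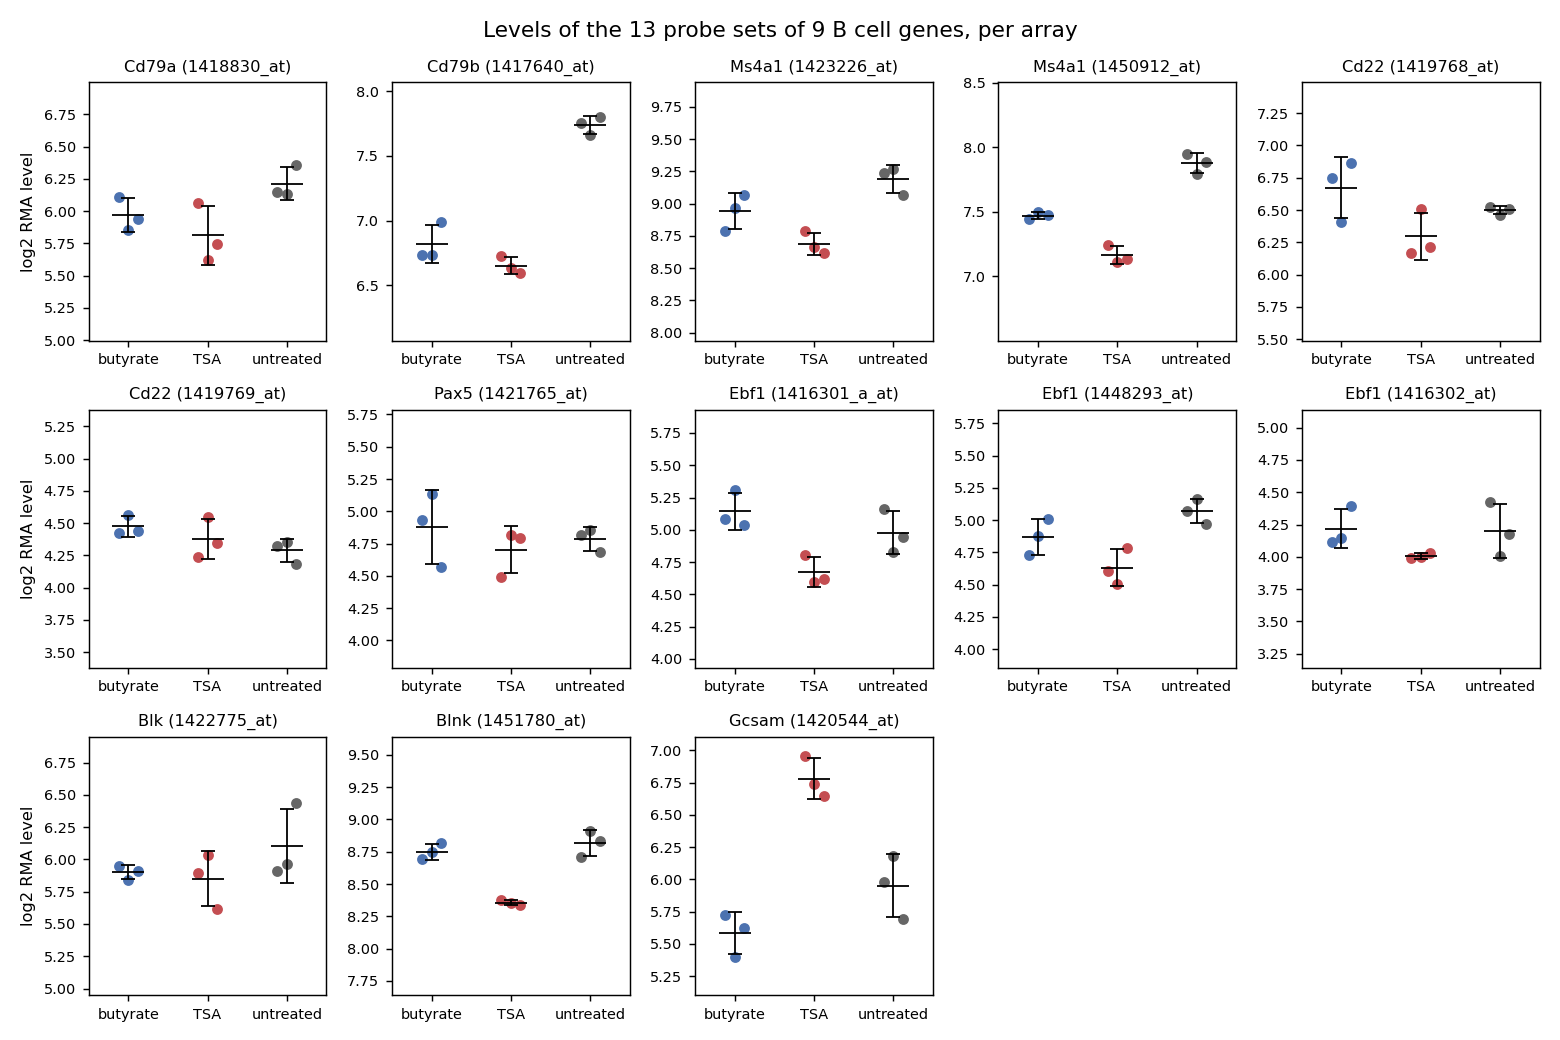
Log2 RMA level (y axis, each panel spanning 2 log2 units) of each of the 13 probe sets on the 9 arrays, by treatment. Points are arrays, the wide dash is the group mean and bars are ± 1 SD (n = 3); Cd79b lies near 6.8 with butyrate and 6.7 with TSA, below all untreated arrays, and Gcsam is highest with TSA.

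The signal chains of the B cell receptor come first. Cd79b, which encodes CD79B, had 6.74, 6.74 and 6.99 with butyrate, 6.72, 6.63 and 6.59 with TSA, and 7.76, 7.66 and 7.80 in untreated cells. Every treated array lay below every untreated array. Cd79b fell by 0.92 ± 0.078 on the log2 scale with butyrate, which is 1.89-fold lower (limma standard error, adjusted p = 4.61e-06). With TSA it fell by 1.09 ± 0.078, which is 2.13-fold lower (adjusted p = 1.79e-06). Both calls held under all alternatives tried, with a change of −1.34 with butyrate on the hybridization spike-in scale. The direct difference, butyrate minus TSA, was 0.17 with a 95% interval from −0.0036 to 0.34 (adjusted p = 0.129), so the treatments were not separated by the test and a difference of up to 0.34 remains within the interval.

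Cd79a, which encodes the partner chain CD79A, was dimmer and moved less. It had 6.11, 5.85 and 5.94 with butyrate, 6.07, 5.62 and 5.75 with TSA, and 6.15, 6.14 and 6.36 in untreated cells. All 6 treated arrays were below the lowest untreated one, although TSA array 1 and butyrate array 1 came close to it. Cd79a fell by 0.40 ± 0.117 with TSA (adjusted p = 0.0179) and its change with butyrate was −0.25 ± 0.117 (adjusted p = 0.101). The TSA call was lost without untreated replicate 3 (−0.33, adjusted p = 0.0634), TSA replicate 2 (−0.31, adjusted p = 0.0713) or TSA replicate 3 (−0.37, adjusted p = 0.0596), and with poly-A scaling (−0.41, adjusted p = 0.0934). The butyrate change was called without TSA replicate 1 (adjusted p = 0.0419) and under each of the 3 other scalings, namely hybridization spike-ins (−0.66, adjusted p = 3.54e-05), poly-A spike-ins (−0.56, 0.00682) and a further quantile normalization (−0.32, 0.0449). Butyrate and TSA differed by 0.16 (95% interval −0.11 to 0.42), which the test did not call, and the sign of this difference turned on both spike-in scales.

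Among the surface molecules, Ms4a1 fell with both drugs. It encodes CD20, a B cell membrane protein and antibody target. Its brighter probe set (1423226_at) had 8.79, 8.97 and 9.06 with butyrate, 8.79, 8.66 and 8.62 with TSA, and 9.24, 9.27 and 9.07 in untreated cells. The second (1450912_at) had 7.44, 7.50 and 7.47 with butyrate, 7.24, 7.11 and 7.14 with TSA, and 7.95, 7.80 and 7.88 in untreated cells. Neither probe set had overlapping treated and untreated arrays, although the highest butyrate array of the brighter set almost reached the lowest untreated one. With TSA the 2 probe sets fell by 0.50 ± 0.084 and 0.71 ± 0.058 (adjusted p = 0.000688 and 4.17e-06). With butyrate they fell by 0.25 ± 0.084 and 0.41 ± 0.058 (adjusted p = 0.0295 and 0.000191). The butyrate call of the brighter set was lost under several alternatives, among them leaving out butyrate replicate 1 (−0.18, adjusted p = 0.107), butyrate replicate 2 (−0.26, 0.0536), untreated replicate 1 (−0.23, 0.0853) or untreated replicate 2 (−0.21, 0.0985), while that of the second set was kept under all alternatives in which it was tested. Ms4a1 was higher with butyrate than with TSA by 0.25 ± 0.084 and 0.31 ± 0.058 (adjusted p = 0.0478 and 0.00335), and these turned to −0.13 and −0.075 on the hybridization scale. The call of the brighter set was also lost without butyrate replicate 2 (0.24, adjusted p = 0.117), butyrate replicate 3 (0.19, 0.142), TSA replicate 2 (0.24, 0.118), TSA replicate 3 (0.22, 0.139), untreated replicate 1 (0.25, 0.0595) or untreated replicate 2 (0.25, 0.0556).

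Cd22 encodes an inhibitory lectin that binds sialic acid and recruits the phosphatase SHP-1, encoded by Ptpn6, to dampen receptor signals. Its brighter probe set (1419768_at) had 6.75, 6.41 and 6.86 with butyrate, 6.17, 6.50 and 6.21 with TSA, and 6.52, 6.46 and 6.51 in untreated cells. The groups overlapped, and the 3 untreated arrays lay within a far smaller range than either treated group. Neither treatment was called against untreated cells (0.18 ± 0.120 with butyrate, adjusted p = 0.241, and −0.20 ± 0.120 with TSA, adjusted p = 0.215). Butyrate was above TSA by 0.38 ± 0.120 (adjusted p = 0.0386), a call lost when any of butyrate replicate 1 (0.34, adjusted p = 0.11), butyrate replicate 3 (0.28, 0.119), TSA replicate 1 (0.32, 0.127), TSA replicate 3 (0.34, 0.113), untreated replicate 1 (0.38, 0.0537) or untreated replicate 2 (0.38, 0.0538) was left out, and the difference was −0.0044 on the hybridization scale. This call was also lost on the poly-A scale (0.07, adjusted p = 0.752), with a replicate block (adjusted p = 0.0649) and with only the 2 groups compared (adjusted p = 0.0708). The dimmer set (1419769_at) ran from 4.19 to 4.57 over the 9 arrays and was not called in any of the 3 comparisons in the fit without a block on the deposited scale. On the hybridization scale the dimmer set was called lower with butyrate than in untreated cells (−0.23, adjusted p = 0.0431) and than with TSA (−0.28, adjusted p = 0.0151). The medians of all genes there were −0.33 and −0.35, with 67.4% and 76.8% of genes called lower. Leaving out butyrate replicate 2 gave a call for the brighter set (0.31, adjusted p = 0.0281), and leaving out TSA replicate 2 gave one for the dimmer set (0.19, adjusted p = 0.047), both for butyrate against untreated cells.

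The lineage factors Pax5 and Ebf1 differed. Pax5 had 4.93, 5.13 and 4.57 with butyrate, 4.49, 4.82 and 4.79 with TSA, and 4.82, 4.85 and 4.68 in untreated cells. The groups overlapped, and the changes were 0.09 (95% interval −0.21 to 0.40) with butyrate and −0.09 (−0.39 to 0.22) with TSA. On the hybridization scale Pax5 was called lower with butyrate (−0.33, adjusted p = 0.0202), so its direction there depends on the scaling. On that scale the median of all genes was also −0.33, and 67.4% of genes were called lower.

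Ebf1 fell with TSA on 2 of its 3 probe sets. The brightest (1416301_a_at) had 5.08, 5.31 and 5.04 with butyrate, 4.81, 4.60 and 4.62 with TSA, and 5.16, 4.83 and 4.94 in untreated cells. The second (1448293_at) had 4.73, 4.87 and 5.01 with butyrate, 4.60, 4.51 and 4.78 with TSA, and 5.07, 5.16 and 4.97 in untreated cells. On both, every TSA array was below every untreated array, and the butyrate arrays overlapped the untreated ones. With TSA they fell by 0.30 ± 0.102 (adjusted p = 0.0355) and 0.44 ± 0.092 (adjusted p = 0.00298), and the third, dimmest set (1416302_at) changed by −0.19 ± 0.105 (adjusted p = 0.174). The call of the brightest set was lost without untreated replicate 1 (−0.21, adjusted p = 0.127), untreated replicate 3 (−0.32, 0.0572), TSA replicate 2 (−0.26, 0.115) or TSA replicate 3 (−0.27, 0.103). That of the second set held under each single-array omission. On the poly-A scale both calls were lost (−0.31, adjusted p = 0.269, and −0.44, adjusted p = 0.0604). With butyrate the 3 sets disagreed in sign, at 0.17, −0.20 and 0.02, and none was called on the deposited scale. On the hybridization scale all 3 were called lower with butyrate (−0.25, −0.62 and −0.40, adjusted p = 0.0203, 7.03e-05 and 0.00203). There 67.4% of all genes were called lower, with a median of −0.33. The second set was also called lower with butyrate on the poly-A scale (−0.51, adjusted p = 0.0148), after a further quantile normalization (−0.29, 0.0306) and without butyrate replicate 3 (−0.27, 0.0414), and the third lower with TSA without untreated replicate 2 (−0.29, adjusted p = 0.0456). Ebf1 was 0.47 ± 0.102 higher with butyrate than with TSA on the brightest set (adjusted p = 0.0072), which became 0.08 and not called on the hybridization scale. The second set was 0.24 higher with butyrate than with TSA and not called (adjusted p = 0.0792), but it was without TSA replicate 3 (0.31, adjusted p = 0.0398) or butyrate replicate 1 (0.31, adjusted p = 0.0439).

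The 3 signalling proteins behaved differently from each other. Blnk, the adaptor that links SYK to BTK and phospholipase C gamma, had 8.69, 8.74 and 8.81 with butyrate, 8.38, 8.35 and 8.34 with TSA, and 8.71, 8.91 and 8.84 in untreated cells. TSA arrays were lower than all others, and butyrate and untreated arrays overlapped. Blnk fell by 0.46 ± 0.061 with TSA (adjusted p = 0.000133) and its change with butyrate was −0.07 ± 0.061 (adjusted p = 0.366). It was 0.39 ± 0.061 higher with butyrate than with TSA (adjusted p = 0.00122), a difference of 0.01 on the hybridization scale. The fall with butyrate was called there instead (−0.49, adjusted p = 0.000257), where the median of all genes was −0.33. On the poly-A scale neither was called, at 0.09 for butyrate minus TSA (adjusted p = 0.701) and −0.38 with butyrate (adjusted p = 0.0849). A further quantile normalization gave 0.0043 with butyrate.

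Blk, a Src-family kinase that acts at the receptor, had 5.95, 5.84 and 5.91 with butyrate, 5.89, 6.04 and 5.62 with TSA, and 5.91, 5.96 and 6.43 in untreated cells. The untreated group held the highest array of all and otherwise overlapped both treated groups. Its changes of −0.20 (95% interval −0.52 to 0.11) with butyrate and −0.25 (−0.57 to 0.06) with TSA were not called, but the butyrate change was on the hybridization scale (−0.62, adjusted p = 0.000381) and the poly-A scale (−0.52, adjusted p = 0.0136). Without untreated replicate 3, the highest array, the changes were −0.04 with butyrate and −0.09 with TSA.

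Gcsam encodes a signalling and motility adaptor of germinal centre B cells, and it was the one member that rose. It had 5.72, 5.40 and 5.63 with butyrate, 6.95, 6.74 and 6.65 with TSA, and 5.98, 6.18 and 5.69 in untreated cells. All TSA arrays lay above all others, while the highest butyrate array was just above the lowest untreated one. With TSA Gcsam rose by 0.83 ± 0.131, which is 1.78-fold higher (adjusted p = 0.000476), and this held under all alternatives in which it was tested. With butyrate it fell by 0.37 ± 0.131 (adjusted p = 0.0381), a call lost without butyrate replicate 2 (−0.28, adjusted p = 0.132), butyrate replicate 3 (−0.39, 0.0633), TSA replicate 2 (−0.37, 0.0513), untreated replicate 1 (−0.36, 0.0904) or untreated replicate 2 (−0.25, 0.139). The call of this fall was also lost with only the 2 groups compared (adjusted p = 0.05001). On the spike-in scales that fall was larger, at −0.79 with hybridization (adjusted p = 1.56e-05) and −0.68 with poly-A (adjusted p = 0.000687). Tested directly, Gcsam was 2.29-fold lower with butyrate than with TSA (−1.20 ± 0.131, adjusted p = 0.000183), and −1.58 on the hybridization scale. Its upstream window held no match to the 4 motifs, nor did the windows of Pax5 and Ebf1, and no link between motifs and responses was tested.

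**Figure D2:**
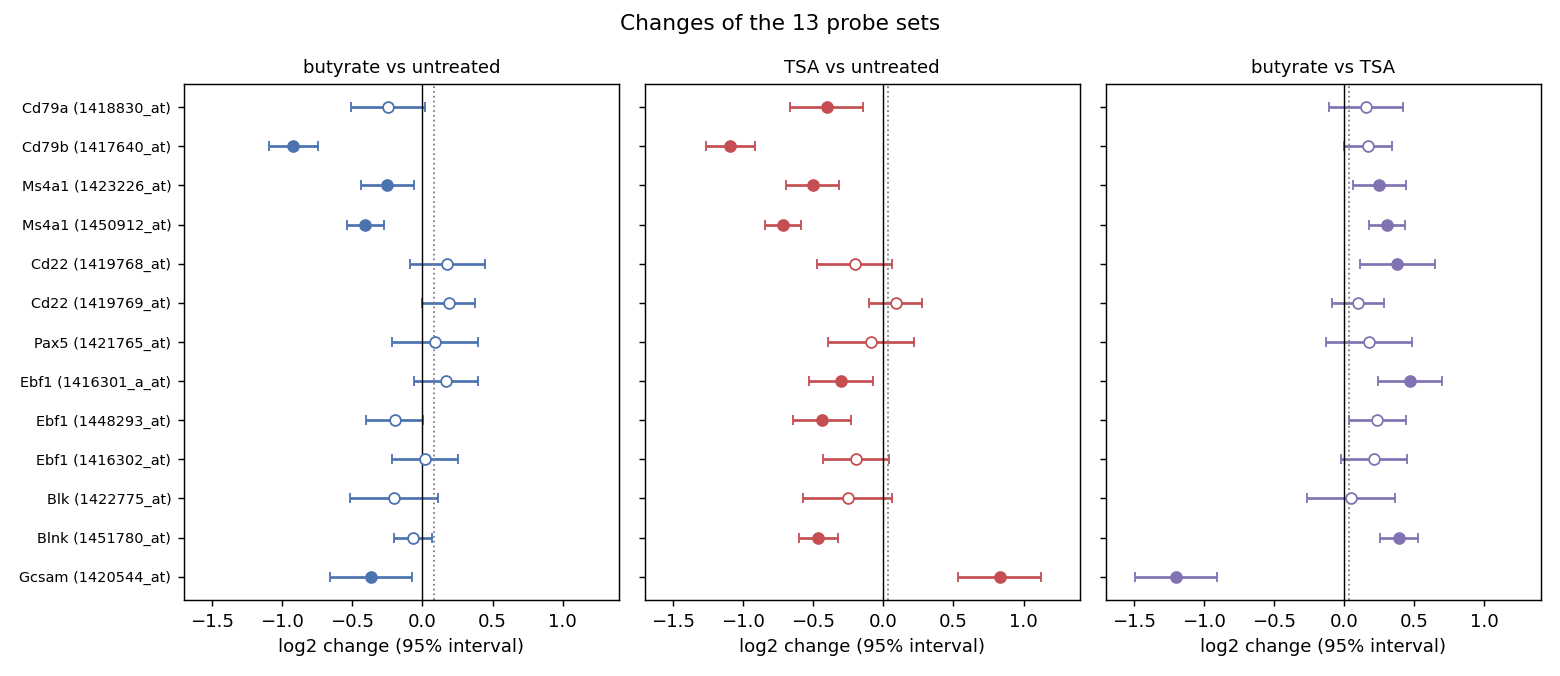
Log2 change of each probe set (x axis) with limma's 95% interval in the 3 comparisons; filled points are called at an adjusted p under 0.05, open points are not, and the dotted line is the median of all genes. Cd79b lies at −0.92 with butyrate and −1.09 with TSA, and Gcsam at −0.37 and 0.83.

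Set directly against TSA, butyrate gave higher values for 4 of the 9 genes (Ms4a1, Cd22, Ebf1 and Blnk) and a lower value for Gcsam. Over all genes 14.2% were higher and 19.1% lower. The other 4 genes (Cd79a, Cd79b, Pax5 and Blk) were not called, with differences from 0.05 to 0.18. The 4 higher values depended on the scaling: with hybridization spike-ins 0 of 9 genes were higher and 2 lower, where 0.799% of all genes were higher and 76.8% lower. Under poly-A scaling 0 were higher and 1 lower, against 0.266% and 24.1% of all genes. Against untreated cells the hybridization scale gave 8 of 9 genes lower with butyrate, where 67.4% of all genes were lower, and the poly-A scale gave 5, where 28.3% were. Calls for TSA were 5 lower and 1 higher with hybridization spike-ins (19.3% and 19.8% of all genes), while poly-A scaling left 3 lower and 1 higher (11.3% and 11.2%).

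**Figure D3:**
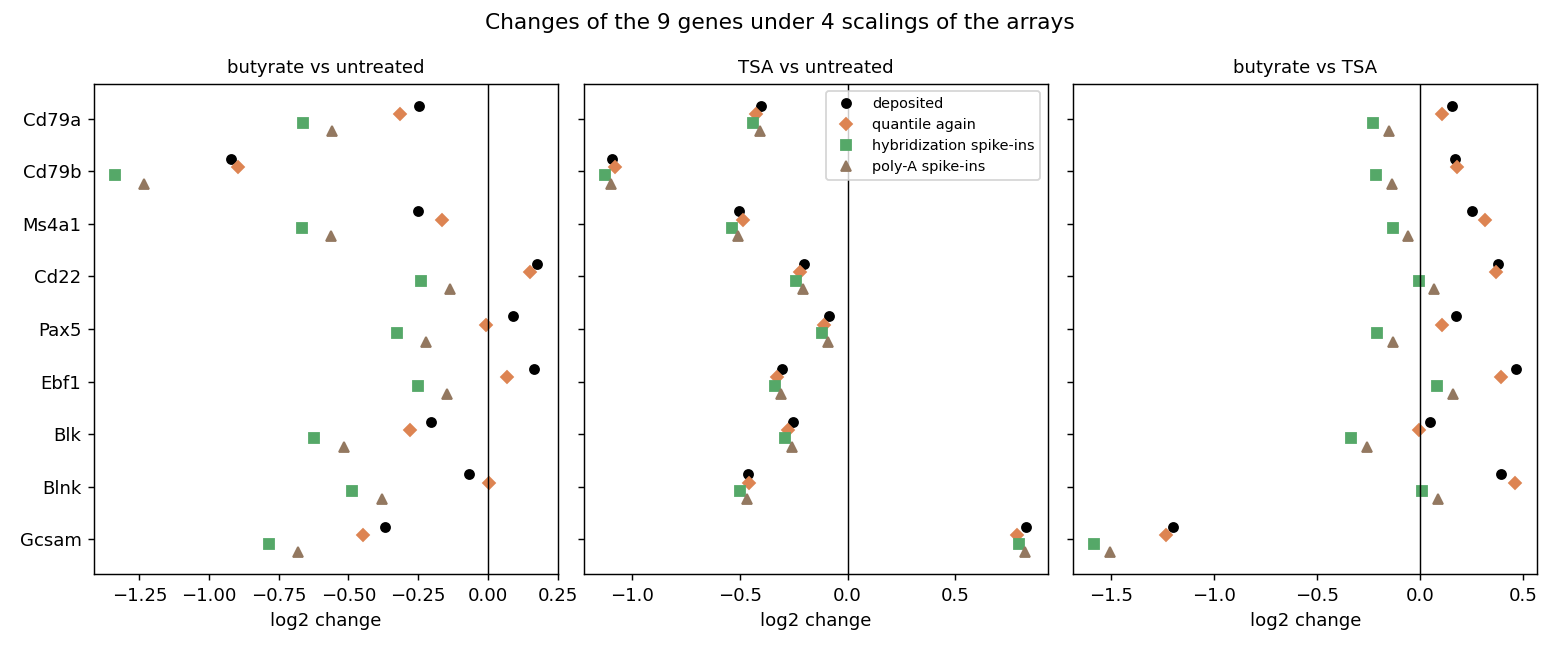
Log2 change of each gene's brightest probe set (x axis) in the 3 comparisons on the deposited scale, after a further quantile normalization and after shifting arrays to equal hybridization or poly-A spike-ins. Marks for TSA lie close together, while both spike-in scales move every butyrate value to the left, as for Blnk from −0.07 to −0.49.

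The other B lineage genes were described in 4 lists of 73 genes, of which 58 were measured. Of the 58, 15 were higher and 24 lower with butyrate, and 8 higher and 27 lower with TSA, with medians of −0.08 and −0.13. Among all genes 32.6% were higher and 24.5% lower with butyrate, and 25.8% higher and 20.5% lower with TSA, with medians of 0.08 and 0.03. The counts of each list below stand beside these same shares, and no list was tested against them. Many of these genes, such as Spi1, Syk and Btk, also act in myeloid cells, so the lists are less specific for B cells than the 9 genes.

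Of 14 measured genes of the B cell surface, 4 rose and 7 fell with butyrate, and 3 rose and 9 fell with TSA. Fcrla, an intracellular relative of Fc receptors, averaged 5.29 with butyrate, 5.65 with TSA and 7.26 in untreated cells, and fell by 1.97 ± 0.101 with butyrate and by 1.61 ± 0.101 with TSA. Its relative Fcrl1, a surface receptor of B cells, fell by 1.20 ± 0.126 and 1.44 ± 0.126. The lipid-presenting Cd1d1 fell by 1.22 ± 0.060 with butyrate and 1.19 ± 0.060 with TSA. In the opposite direction, the BAFF receptor gene Tnfrsf13c rose by 1.31 ± 0.054 with butyrate and 0.26 ± 0.054 with TSA, and the tetraspanin Cd81, which many cells express, rose by 1.11 ± 0.053 and 0.96 ± 0.053. These 5 genes were picked for the largest called changes of the list. That their treated and untreated arrays did not overlap is therefore likely from the choice and is not a separate result.

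Of 10 measured immunoglobulin and plasma cell genes, 3 rose and 2 fell with butyrate, and 1 rose and 4 fell with TSA. Ighm was not called with either (0.04 ± 0.061 with butyrate, −0.11 ± 0.061 with TSA). Prdm1, the plasma cell factor BLIMP1 that also acts in DC and T cells, fell by 1.50 ± 0.076 with butyrate and 1.20 ± 0.076 with TSA. Irf4, a factor of plasma cells and of DC, rose by 0.68 ± 0.054 with butyrate, and its value with TSA was 0.00 ± 0.054. Jchain, which joins immunoglobulin polymers, fell by 0.29 ± 0.055 with TSA and had −0.02 ± 0.055 with butyrate. The surrogate light chain Igll1 rose by 0.41 ± 0.063 with butyrate and 0.18 ± 0.063 with TSA, Xbp1 fell by 0.42 ± 0.055 and 0.18 ± 0.055, and Tnfrsf17, the receptor BCMA, had −0.15 ± 0.065 with butyrate and fell by 0.20 ± 0.065 with TSA.

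Of 19 measured genes of B cell receptor signalling, 2 rose and 10 fell with butyrate, and 3 rose and 9 fell with TSA. Syk, the kinase that reads the phosphorylated CD79 tails, fell by 0.27 ± 0.067 with butyrate and 0.38 ± 0.067 with TSA. The kinase gene Btk fell by 0.44 ± 0.056 with butyrate and had −0.12 ± 0.056 with TSA, and the inhibitory Fc receptor Fcgr2b fell by 0.40 ± 0.059 with butyrate and had −0.09 ± 0.059 with TSA. The exchange factor Vav3 fell by 1.14 ± 0.054 and 0.50 ± 0.054, and the phosphatase Ptprc (CD45) by 0.67 ± 0.045 and 0.30 ± 0.045. Sh3bp2 and Bcl10, an adaptor and a link to NF-kB, fell by 0.54 ± 0.099 and 0.42 ± 0.046 with butyrate and by 0.54 ± 0.099 and 0.44 ± 0.046 with TSA. Prkcb, the protein kinase C that acts downstream of the receptor, rose by 0.90 ± 0.057 with butyrate and 0.48 ± 0.057 with TSA.

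Of 15 measured B lineage transcription factors besides Pax5 and Ebf1, 6 rose and 5 fell with butyrate, and 1 rose and 5 fell with TSA. Pou2af1 (OCA-B), the coactivator of OCT factors in B cells, averaged 6.01 with butyrate, 6.15 with TSA and 7.44 in untreated cells, falling by 1.43 ± 0.085 and 1.29 ± 0.085. Its partner Pou2f2 (OCT2) had −0.26 ± 0.079 with butyrate and −0.50 ± 0.079 with TSA, both called lower. Spi1 (PU.1), shared with myeloid cells, fell by 1.45 ± 0.051 and 0.97 ± 0.051. Foxo1 rose by 0.76 ± 0.072 with butyrate and 0.56 ± 0.072 with TSA. Spib, an ETS factor of B cells and plasmacytoid DC, rose by 0.79 ± 0.062 with butyrate and had 0.01 ± 0.062 with TSA.

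**Figure D4:**
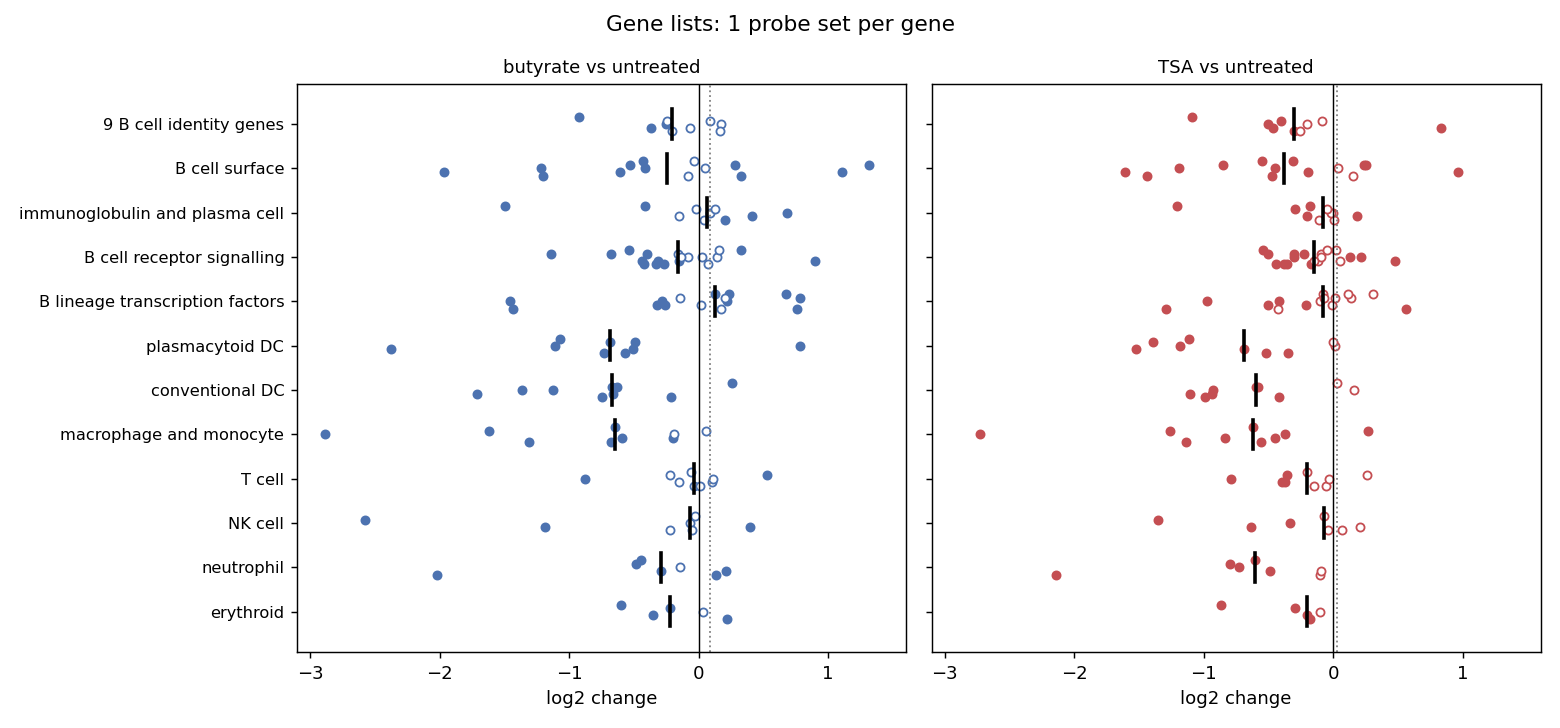
Log2 change (x axis) of every measured gene of each list with butyrate and with TSA, 1 probe set per gene; filled points are called at an adjusted p under 0.05, short bars are list medians and the dotted line is the median of all genes. The 9 B cell identity genes have medians of −0.20 with butyrate and −0.30 with TSA, and markers of conventional DC have −0.67 and −0.60.

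Markers of other cell types are set beside the 9 genes here. They moved to differing degrees, and their part in the results was not tested. Shares over all genes, to set beside every marker count below, were 32.6% higher and 24.5% lower with butyrate. With TSA they were 25.8% higher and 20.5% lower. The mean level of the 9 genes ran from 6.49 to 6.54 on butyrate arrays, 6.35 to 6.47 on TSA arrays and 6.69 to 6.70 on untreated arrays. Of 9 measured plasmacytoid DC markers 1 rose and 8 fell with butyrate, and 0 rose and 7 fell with TSA (medians −0.69 and −0.69). Their mean level ran from 8.75 to 8.85, from 8.80 to 8.82 and from 9.55 to 9.57 in butyrate, TSA and untreated arrays. Tcf4, the defining factor of that lineage, fell by 0.49 ± 0.047 with butyrate and had 0.00 ± 0.047 with TSA. Of 9 conventional DC markers 1 rose and 8 fell with butyrate and 0 rose and 7 fell with TSA, among them Flt3 (−0.63 ± 0.046 and −0.60 ± 0.046) and Itgax (−0.74 ± 0.063 and −0.99 ± 0.063), with a mean level from 8.16 to 8.20, 8.35 to 8.35 and 8.93 to 8.97.

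Of 9 T cell markers 1 rose and 1 fell with butyrate and 0 rose and 4 fell with TSA (medians −0.03 and −0.20), and their mean level ran from 6.36 to 6.41 with butyrate, 6.15 to 6.26 with TSA and 6.41 to 6.48 in untreated cells. Of 7 NK cell markers 1 was higher and 2 were lower with butyrate, and 0 were higher and 3 lower with TSA, with mean levels of 6.19 to 6.23, 6.41 to 6.48 and 6.73 to 6.75. Among 9 macrophage and monocyte markers butyrate raised 0 and lowered 7, and TSA raised 1 and lowered 8, with mean levels of 7.44 to 7.59, 7.55 to 7.60 and 8.39 to 8.51. Among 7 neutrophil markers butyrate raised 2 and lowered 4, and TSA raised 0 and lowered 5, with mean levels of 11.26 to 11.28, 10.95 to 11.05 and 11.65 to 11.73. Among 5 erythroid markers butyrate raised 1 and lowered 3, and TSA raised 0 and lowered 4, with mean levels of 8.73 to 8.78, 8.59 to 8.62 and 8.89 to 8.99. None of these lists had a marker at 0, since RMA values have a floor of about 3.

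Genes whose pattern came closest to the average of the 9 were sought over the 9 arrays among 7809 genes outside the lists that were called with either treatment. The measure was the root mean square distance between values from which each gene's untreated mean had been subtracted. The 5 nearest were Fam126a, Ube2c, Gnb2, Rit1 and Zfp764, at distances of 0.03 to 0.04, with changes of −0.21, −0.15, −0.20, −0.16 and −0.22 with butyrate and −0.27, −0.31, −0.24, −0.26 and −0.31 with TSA. The average of the 9 genes lay between −0.21 and −0.16 on butyrate arrays and between −0.34 and −0.22 on TSA arrays, although single members ran from −1.09 to 0.83 with TSA.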

How the data were processed

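The authors deposited log2 expression values per probe set, and the submitters' processing notes name RMA as the method. Which program and version ran it is not given in the sources used here. Of 22690 probe sets, 64 were array controls, 20380 had 1 symbol in the platform annotation, 691 had several and 1555 were unnamed here. The 22626 non-control probe sets of all 9 arrays entered 1 fit of group means by limma (version 3.58.1, R version 4.3.3), using lmFit and then eBayes, with 6 residual and 3.67 prior degrees of freedom. P-values were adjusted by Benjamini-Hochberg over those probe sets in each comparison, and calls were made at 0.05. A gene with several probe sets was judged by the brightest over the 9 arrays, and members' other probe sets are given beside it. Errors after ± are limma's standard errors unless given as SD. No arrays held identical values. The fit was tested on simulated data with known log2 changes. For changes of 0.5 it recovered 74.6% with butyrate, 61.2% with TSA and 77.6% for butyrate against TSA. For changes of 0.25 it recovered 16.7%, 27.3% and 22.7%, so changes of this size can go uncalled. Far fewer probe sets were changed there than were called in the data, so these shares may not carry over. The members, lists and alternatives were chosen with earlier results of these data known, and the motifs after the upstream windows had been read. Named genes are all members, up to 4 called genes of each B lineage list and treatment with the largest changes, and a fixed set. List genes without a single-symbol probe set are not analysed here. Alternatives were 1 probe set per gene, 3 other scalings, a filter on level, another variance model, 2 groups only, a replicate block and omission of each array. The 3 arrays per group limit the precision.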

Additional observations from a re-analysis of the deposited data

Results flagged for a closer look

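Gcsam had opposite effects of the 2 drugs, both called, and the direct test of the difference called it too. Butyrate minus TSA was −1.20 on the log2 scale (limma adjusted p = 0.000183), with 5.40 to 5.72 on butyrate arrays and 6.65 to 6.95 on TSA arrays. The call of the fall with butyrate against untreated cells was lost when any of 5 single arrays was left out, or with only the 2 groups compared (adjusted p = 0.05001). That call was kept on the hybridization scale (−0.79, adjusted p = 1.56e-05) and the poly-A scale (−0.68, adjusted p = 0.000687). The call of the rise with TSA was kept in all of those fits.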

How the results depend on the processing

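Of 624 recomputed changes of the 13 probe sets, 526 kept their direction and side of the threshold, 44 lost a call, 17 gained one and 37 changed sign, 10 of these with a call on either side of the change. The Cd79b falls and the TSA changes of Ms4a1, Blnk and Gcsam kept their calls in every alternative that measured them. Spike-in scaling mattered most. With hybridization spike-ins, 8 of the 9 genes were lower with butyrate (67.4% of all genes, with 7.37% higher), and butyrate against TSA had 0 higher and 2 lower (0.799% and 76.8%). Of the 58 genes of the other B lineage lists, 6 were then higher and 43 lower with butyrate (7.37% and 67.4% of all genes). With TSA 4 were higher (19.8%), and for butyrate against TSA 3 were higher and 36 lower (0.799% and 76.8%). On that scale 5 butyrate changes turned negative: Cd22 1419768_at (−0.24) and 1419769_at (−0.23), Pax5 (−0.33), Ebf1 1416301_a_at (−0.25) and 1416302_at (−0.40). For butyrate against TSA 10 turned negative: Cd79a (−0.23), Cd79b (−0.21), Ms4a1 1423226_at (−0.13) and 1450912_at (−0.075), Cd22 1419768_at (−0.0044) and 1419769_at (−0.28), Pax5 (−0.21), Ebf1 1448293_at (−0.15) and 1416302_at (−0.17), and Blk (−0.33). With poly-A spike-ins, 5 of the 9 genes were lower with butyrate (28.3% of all genes, with 5.58% higher), 3 lower with TSA (11.3%) and 0 higher for butyrate against TSA (0.266%). The other lists then had 5 higher with butyrate (5.58% of all genes), 3 higher and 12 lower with TSA (11.2% and 11.3%), and 2 higher for butyrate against TSA (0.266%). The same 5 butyrate changes turned negative, at −0.14, −0.12, −0.22, −0.15 and −0.30 in the order above. For butyrate against TSA 8 did: Cd79a (−0.15), Cd79b (−0.14), Ms4a1 1423226_at (−0.055), Cd22 1419769_at (−0.21), Pax5 (−0.13), Ebf1 1448293_at (−0.070) and 1416302_at (−0.097), and Blk (−0.26). A further quantile normalization turned the butyrate changes of Pax5 (−0.0049), Ebf1 1416302_at (−0.064) and Blnk (0.0043), and the butyrate minus TSA value of Blk (−0.0033). Why the spike-ins differed was not tested. Among probe sets above the median level, which hold 3 of the 9 genes, TSA had 0 higher and 3 lower (41.4% and 32.1% of all genes), and butyrate against TSA 2 higher and 0 lower (19.8% and 36.4%); here fewer genes were tested. With only the 2 groups compared, butyrate against TSA had 2 higher (14.4% of all genes). The replicate block also gave 2 (12.9%), and it called Cd22 1419769_at higher with butyrate (0.19, adjusted p = 0.0424). Same-numbered arrays had correlations of deviations from −0.10 to 0.32, over 0.1 in 2 of 9 pairs, so the numbers were not taken to pair the arrays. Leaving out single arrays gave 3 to 5 of the 9 genes lower and 1 higher with TSA, 1 to 4 lower and 0 to 1 higher with butyrate, and 2 to 4 higher and 1 lower for butyrate against TSA. Shares of all genes in these fits were 18.4% to 20.4% lower and 23.2% to 25.7% higher with TSA. With butyrate they were 22.6% to 24.3% lower and 28.6% to 32.2% higher. For butyrate against TSA they were 9.86% to 14.7% higher and 15% to 19% lower. For the other lists the omissions gave 5 to 8 higher and 21 to 25 lower with TSA, 14 to 16 higher and 21 to 24 lower with butyrate, and 9 to 18 higher and 7 to 10 lower for butyrate against TSA. Omissions turned the sign of 4 changes, none of them called in those fits: Pax5 with butyrate (−0.035 to 0.25) and with TSA (−0.14 to 0.019), Ebf1 1416302_at with butyrate (−0.081 to 0.13), and Blk for butyrate against TSA (−0.066 to 0.14). Signal near background limits Pax5, Ebf1 and the dimmer Cd22 probe set.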
